A study of Mus musculus with 4 samples.

Results

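The 35 genes described here encode the heat shock chaperones of the cytosol and of mitochondria, with the cochaperones that regulate them and the transcription factors Hsf1 and Hsf2. They were listed by name, as mouse symbols of the HSP70, HSP90, J-domain, small heat shock protein, chaperonin, BAG and HSP90 cochaperone families. The list was made with earlier results of these data known, so counts and medians over its members are descriptions. All 35 were found among the 27179 NCBI genes of the deposited count table. They were measured by RNA sequencing in group 2 innate lymphoid cells (ILC2s), lymphocytes without antigen receptors that release type 2 cytokines, isolated by cell sorting from colons of C57BL/6J mice. High-fiber libraries 1 and 2 came from mice on a high-fiber diet and control libraries 1 and 2 from mice on a control diet, with 1 mouse per library. Neither the mice's age nor the sort gates, the kind of fiber or the time on each diet is stated in the labels, and the control diet is given by name alone. The labels name no genotype beyond the strain and no other treatment.

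Chaperones bind unfolded protein and use ATP to help it fold. HSP70 proteins take up short unfolded stretches that J-domain proteins deliver to them, HSP110 and BAG proteins release the bound nucleotide, HSP90 proteins finish the folding of kinases and receptors, and ring-shaped chaperonins enclose whole proteins such as actin and tubulin. Some of these genes are transcribed at all times, while others are switched on within minutes by heat or other protein damage, when the factor HSF1 forms trimers and binds heat shock elements in their promoters. By this textbook division 16 of the 35 were taken as inducible and 19 as constitutive, although several, such as Hspd1 and Hspe1, are both expressed at rest and raised by heat.

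Library totals were 29263068 and 20750263 counts on the high-fiber diet and 30406730 and 20253987 counts on the control diet, and 11841 genes, with all 35 members among them, passed the filter on low counts. All 12 ILC2 markers examined, Gata3, Il1rl1 and Il7r included, had counts in every library. Levels are given as CPM, counts relative to the library total after TMM scaling. Summed over 10 T cell markers the level was 909 and 1004 CPM in the high-fiber libraries and 922 and 1063 CPM in the control libraries, mostly Trbc1, Trbc2 and Cd3g, while Cd8a, Cd8b1 and Cd5 stood at 0 throughout. Of 9 epithelial markers, 7 or 8 per library were at 0 and Epcam gave nearly all of a sum of 27.1 and 37.3 CPM on the high-fiber diet, against 25.1 and 27.3 CPM on the control diet. Over 10 B and plasma cell markers the sum was 829 and 1649 CPM in high-fiber libraries, against 560 and 374 CPM in control libraries, and over 11 macrophage and dendritic cell markers 434 and 449 CPM, against 254 and 386 CPM. Xbp1 made up most of the B and plasma cell sum in 3 of the 4 libraries. The plasma cell transcripts Igkc, Igha and Jchain together had 301 and 1167 CPM in the high-fiber libraries, against 131 and 11.5 CPM in control libraries 1 and 2, so that control library 2 was the lowest. Over 7 stromal and endothelial markers the sum was 64.5 and 42.2 CPM, against 44.2 and 42.6 CPM. A 0 is compatible with as many as 3 counts in that library. No list of another cell type was highest in control library 2 except the T cell one. The part of these cells in the values below was not tested, and in sorted bulk RNA a change in the share of cells that express a gene and in RNA per cell cannot be told apart.

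The promoters of 5 inducible members are shown because the heat shock element, the site of HSF1, is a short repeat that can be read in the sequence. RefSeq promoters of the GRCm38.p6 assembly, each 250 bases before and 50 bases after a transcription start, were matched for 28 of the 35 members. Not matched were Hsp90aa1, Hsp90ab1, Hspa8, Hspa9, Cct4, Cryab and Hsf1. The element was searched as GAANNTTC and as TTCNNGAA, each of which is its own reverse complement and so covers both strands. Overlapping matches were counted separately. Capitals mark the matches. The Hspa1a window lies at chr17:34972107-34972406 on the minus strand, Hsph1 at chr5:149636287-149636586 on the minus strand, Hspe1 at chr1:55087898-55088197 on the plus strand, Chordc1 at chr9:18292017-18292316 on the plus strand and Dnajb1 at chr8:83607925-83608224 on the plus strand.
Hspa1a: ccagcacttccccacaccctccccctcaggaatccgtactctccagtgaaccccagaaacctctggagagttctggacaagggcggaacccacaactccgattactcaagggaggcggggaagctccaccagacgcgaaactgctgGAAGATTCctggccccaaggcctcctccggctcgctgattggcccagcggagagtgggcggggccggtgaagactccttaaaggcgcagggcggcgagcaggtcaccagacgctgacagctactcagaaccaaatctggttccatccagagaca
Hsph1: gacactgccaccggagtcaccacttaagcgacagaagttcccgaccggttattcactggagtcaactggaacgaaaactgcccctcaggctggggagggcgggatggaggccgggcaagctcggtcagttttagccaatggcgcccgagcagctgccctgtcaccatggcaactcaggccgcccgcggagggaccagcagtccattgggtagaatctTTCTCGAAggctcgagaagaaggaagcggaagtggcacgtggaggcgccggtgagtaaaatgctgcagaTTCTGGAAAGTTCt
Hspe1: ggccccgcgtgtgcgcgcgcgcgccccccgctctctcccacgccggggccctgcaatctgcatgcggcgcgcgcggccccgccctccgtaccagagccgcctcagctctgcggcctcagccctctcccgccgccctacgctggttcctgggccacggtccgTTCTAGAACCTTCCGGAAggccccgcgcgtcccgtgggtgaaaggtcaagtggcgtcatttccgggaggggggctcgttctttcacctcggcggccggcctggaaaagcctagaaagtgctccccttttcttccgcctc
Chordc1: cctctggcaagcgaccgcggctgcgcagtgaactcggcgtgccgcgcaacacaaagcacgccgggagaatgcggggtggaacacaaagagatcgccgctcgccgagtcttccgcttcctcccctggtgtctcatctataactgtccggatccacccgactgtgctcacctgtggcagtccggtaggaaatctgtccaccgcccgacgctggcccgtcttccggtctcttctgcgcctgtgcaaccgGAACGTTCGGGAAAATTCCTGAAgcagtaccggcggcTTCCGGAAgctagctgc
Dnajb1: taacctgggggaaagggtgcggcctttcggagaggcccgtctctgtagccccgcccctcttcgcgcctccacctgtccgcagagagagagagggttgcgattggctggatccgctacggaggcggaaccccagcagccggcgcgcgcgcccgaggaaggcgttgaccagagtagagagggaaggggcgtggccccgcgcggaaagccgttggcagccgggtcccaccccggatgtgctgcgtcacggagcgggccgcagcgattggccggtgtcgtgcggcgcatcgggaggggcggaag
The window of Hspa1b differed from that of Hspa1a at 4 of 300 bases and held the same single match. The Hspe1 window shared 285 bases with that of Hspd1, which is transcribed the other way, so both genes share a run of 3 overlapping matches. Chordc1 held 5 matches, 4 of them in 1 overlapping run, and Dnajb1 held 0 in its windows, which says only that these letters were not there. At least 1 match was present for 10 of 14 inducible and 4 of 14 constitutive members with a window, against 14.3% of the 9168 tested genes with one and 15.1% of all 32851 windows. At least 3 matches were present for 4 of 14 inducible members (Chordc1, Hsph1, Hspd1 and Hspe1) and 0 of 14 constitutive members, against 0.284% of the tested genes. These matches describe the sequence only. In control library 2 against the mean of the other libraries, Chordc1, the gene with most matches, was 1.05-fold and Dnajb1, with 0, was 3.51-fold. The other inducible members without a match were Hspa4l (1.07-fold), Ahsa1 (1.01-fold) and Stip1 (1.02-fold). The others with a match were Hspa1a (5.40-fold), Bag3 (5.27-fold), Hspa1b (4.14-fold), Hspb1 (3.92-fold), Hsph1 (2.66-fold), Hspe1 (2.12-fold), Dnaja1 (1.68-fold), Dnajb4 (1.65-fold) and Hspd1 (1.32-fold). Whether the folds go with the matches was not tested.

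Of the counts in a library, the 35 genes held 1.28% in high-fiber library 1 and 1.28% in high-fiber library 2, against 1.12% in control library 1 and 2.03% in control library 2. The inducible genes together held 0.385% and 0.410% of the counts on the high-fiber diet, against 0.353% in control library 1 and 0.874% in control library 2. The constitutive genes held 0.891% and 0.869% on the high-fiber diet, against 0.772% and 1.15% in control libraries 1 and 2. Control library 2 was thus high for both sums. For the constitutive genes this lay with Hspa8 and Hsp90ab1, which together had 4042 and 4321 CPM in the high-fiber libraries, against 3372 and 6586 CPM in control libraries 1 and 2. The other 17 constitutive genes summed to 4986 and 4529 CPM in the high-fiber libraries, against 4397 and 4534 CPM in the control libraries. All 16 inducible genes summed to 3907 and 4173 CPM in the high-fiber libraries, against 3550 and 8430 CPM in control libraries 1 and 2. Dnajb1 alone had 1105 and 983 CPM, against 838 and 3406 CPM, so abundant genes such as this weigh most in the sum. The ratio of the inducible to the constitutive sum was 0.758 in control library 2 and 0.457 in control library 1. In the high-fiber libraries it was 0.433 and 0.471. This ratio is taken within a library and does not depend on the scaling between libraries.

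Levels per kilobase of transcript allow a rough comparison of genes. The length is that of the annotated transcript with the longest coding region, such as 9479 bases for Hspa4l and 5622 bases for Dnaja1. Ranks could differ where the cells use another transcript. By this measure the cytosolic HSP90 gene Hsp90ab1 was the most abundant member, at a mean of 1165 CPM per kb over the 4 libraries. Hspa8, the constitutive HSP70, followed at 687 CPM per kb and Dnajb1, an inducible J-domain partner of HSP70, at 528 CPM per kb. Their ranges overlapped, since Hspa8 ran from 461 to 1093 and Dnajb1 from 280 to 1137 CPM per kb. In both high-fiber libraries and in control library 1 Dnajb1 lay beside the chaperonin subunit Cct5, which ran from 319 to 342 CPM per kb. The lowest members were the small heat shock gene Cryab (0.721), Hsf2 (2.06), the small heat shock gene Hspb1 (2.77), the HSP110 gene Hspa4l (3.85) and the exchange factor Bag3 (7.18), as means in CPM per kb. The other 26 members with a length lay between 18.1 CPM per kb for Dnajb6 and 328 CPM per kb for Cct5. No coding transcript in the annotation used for lengths was matched to the NCBI gene of Cct6a.

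**Figure D1:**
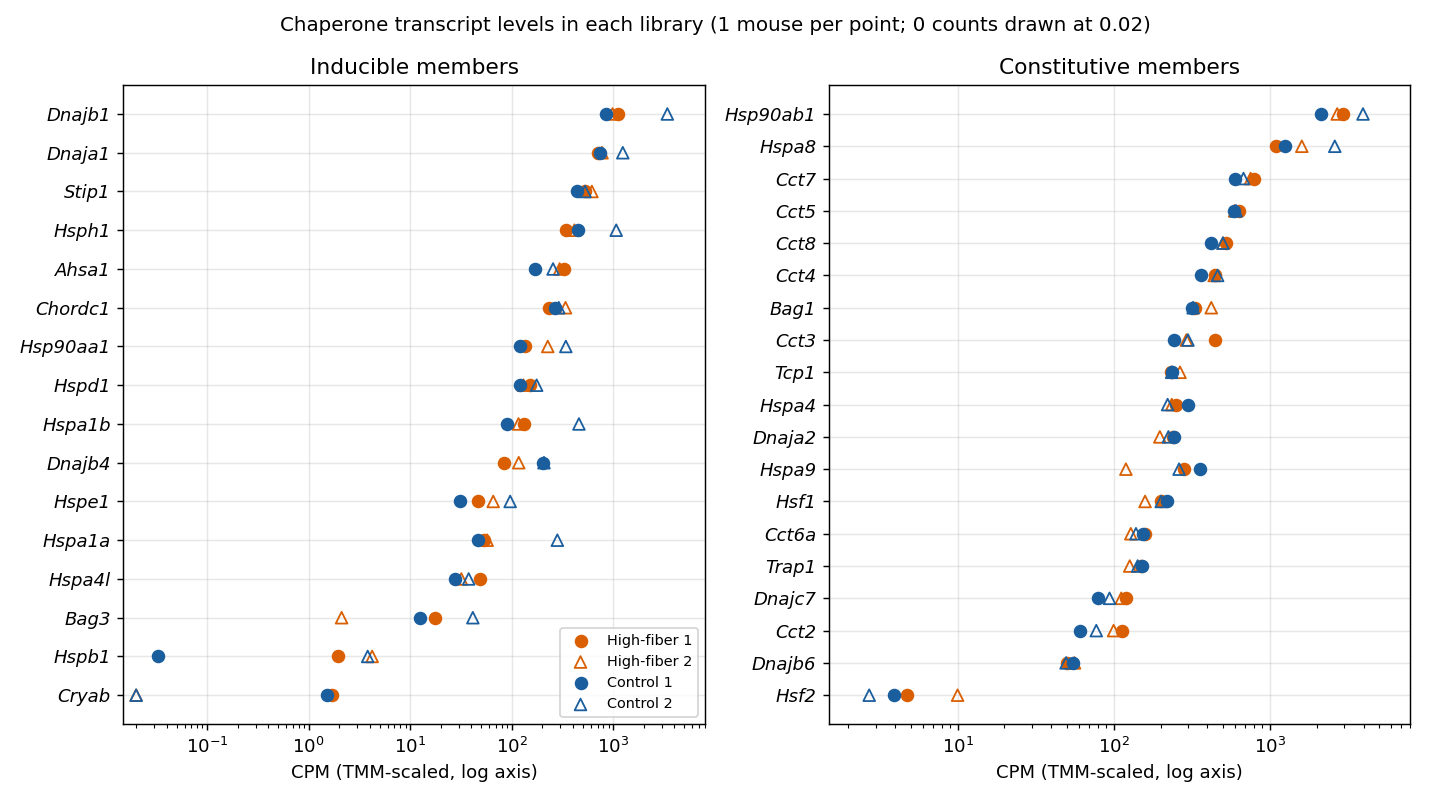
Level of each of the 35 genes in each library, as TMM-scaled CPM on a logarithmic axis, with inducible members in the left panel and constitutive members in the right one. Each point is 1 mouse, orange for the high-fiber and blue for the control diet, and values of 0 are drawn at 0.02. The open blue triangles of control library 2 lie to the right of the other points for Dnajb1, Hspa1a, Hspa1b, Hsph1, Hsp90aa1 and Bag3, while most constitutive members show 4 close points.

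The inducible HSP70 genes Hspa1a and Hspa1b lie close together on chromosome 17, from 34969359 to 34972156 and from 34956429 to 34959238 in GRCm38. Their transcripts are nearly identical, so reads may be split between them, and the sum of the pair is the safer value. How reads that match both were counted is not stated, and the sum would be too low if they were dropped. Hspa1a had 53.1 and 57.2 CPM in the high-fiber libraries, against 46.3 and 281 CPM in control libraries 1 and 2. Hspa1b had 131 and 117 CPM in the high-fiber libraries, against 89.1 and 459 CPM in control libraries 1 and 2. Summed, the pair stood at 184 and 174 CPM on the high-fiber diet, against 135 and 740 CPM on the control diet. Control library 2 was several times above the other 3 libraries, which lay close together, and the diets overlapped. The share of the pair's counts assigned to Hspa1b was 71.1% and 67.1% on the high-fiber diet, against 65.8% and 62.0% on the control diet.

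Hspa8, the constitutive HSP70 that serves all cells, also had its highest level in control library 2, at 1105 and 1609 CPM in the high-fiber libraries, against 1252 and 2617 CPM in control libraries 1 and 2. The ratio of the inducible pair to Hspa8, per kb, was 0.140 and 0.0905 on the high-fiber diet, against 0.0906 and 0.236 on the control diet. Hsph1, an HSP110 that releases nucleotide from HSP70, had 344 and 414 CPM in the high-fiber libraries, against 453 and 1068 CPM in the control libraries. Both high-fiber libraries were below both control libraries for Hsph1. Its constitutive relative Hspa4 had 251 and 236 CPM on the high-fiber diet, against 301 and 222 CPM on the control diet, and the ratio of Hsph1 to Hspa4, per kb, was 5.84 in control library 2, against 1.83 in control library 1 and 1.67 and 2.13 in the high-fiber libraries. Hspa4l had 48.6 and 31.9 CPM on the high-fiber diet, against 27.9 and 37.6 CPM on the control diet. Hspa9, the mitochondrial HSP70, was lowest in high-fiber library 2, with 281 and 120 CPM on the high-fiber diet, against 356 and 263 CPM on the control diet.

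Among the HSP90 genes, the inducible Hsp90aa1 had 136 and 226 CPM in the high-fiber libraries, against 121 and 341 CPM in control libraries 1 and 2. The constitutive Hsp90ab1 had 2937 and 2712 CPM in the high-fiber libraries, against 2120 and 3969 CPM in control libraries 1 and 2. Within a library Hsp90aa1 was a small fraction of Hsp90ab1, with per kb ratios of 0.0355 and 0.0641 on the high-fiber diet and 0.0440 and 0.0660 on the control diet. Library 2 of each diet was the higher one for this ratio, so it did not set control library 2 apart. The mitochondrial HSP90 gene Trap1 varied little, at 149 and 127 CPM on the high-fiber diet, against 152 and 143 CPM on the control diet.

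Of the J-domain genes, which hand clients to HSP70, Dnajb1 had 1105 and 983 CPM in the high-fiber libraries, against 838 and 3406 CPM in control libraries 1 and 2. Its ratio to the constitutive Dnaja2, per kb, was 14.8 in control library 2, against 3.37 in control library 1 and 4.47 and 4.84 in the high-fiber libraries. Dnaja1 had 705 and 774 CPM on the high-fiber diet, against 740 and 1240 CPM on the control diet. Dnajb4 (chromosome 3, from 152181580 to 152210432 in GRCm38) behaved differently from these, with 84.0 and 117 CPM in the high-fiber libraries and 204 and 208 CPM in the control libraries. Here the 2 control libraries were alike and both lay above the high-fiber ones. The constitutive J-domain genes Dnaja2, Dnajb6 and Dnajc7 had ratios of the highest to the lowest library of 1.23, 1.13 and 1.52.

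The small heat shock genes, whose products hold unfolded protein without ATP, had few counts. Hspb1 had 56 and 86 counts in the high-fiber libraries, against 1 and 80 counts in the control libraries, and Cryab had 49 and 0 counts on the high-fiber diet, against 46 and 0 counts on the control diet. Bag3, an inducible exchange factor that also targets damaged protein for autophagy, had 509 and 43 counts in the high-fiber libraries, or 17.6 and 2.11 CPM, against 376 and 868 counts or 12.4 and 41.4 CPM in the control libraries. Its constitutive relative Bag1 had 332 and 423 CPM on the high-fiber diet, against 317 and 324 CPM on the control diet.

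In mitochondria Hspd1 and Hspe1 encode the chaperonin ring and its lid. They lie head to head on chromosome 1, Hspd1 from 55077833 to 55088243 and Hspe1 from 55088148 to 55091317 in GRCm38. Hspe1 had 46.2 and 65.7 CPM in the high-fiber libraries, against 30.8 and 96.5 CPM in control libraries 1 and 2. Hspd1 had 153 and 130 CPM on the high-fiber diet, against 120 and 176 CPM on the control diet. Although the pair shares a promoter region, the ratio of Hspe1 to Hspd1, per kb, was 0.946 and 1.58 on the high-fiber diet and 0.806 and 1.72 on the control diet, higher in library 2 of each diet. The annotation names 6 pseudogenes of Hspe1 and 5 of Hspd1, and 1 each of Cct3, Dnaja1, Hspa9 and Tcp1, whose reads could be shared with these genes. Pseudogenes that do not carry a member's name were not counted.

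The 8 genes of the cytosolic chaperonin CCT, which folds actin and tubulin, varied little between libraries. Their summed level was 3356 and 3087 CPM in the high-fiber libraries, against 2670 and 3009 CPM in the control libraries. The ratio of the highest to the lowest library ran from 1.07 for Cct5 to 1.85 for Cct2. Cct2 had 113 and 100.1 CPM on the high-fiber diet, against 61.1 and 77.5 CPM on the control diet, and the diets did not overlap. Of the HSP90 cochaperones, Ahsa1, which speeds the ATPase of HSP90, had 325 and 296 CPM on the high-fiber diet, against 168 and 255 CPM on the control diet. Stip1, which joins HSP70 to HSP90, had 521 and 616 CPM on the high-fiber diet, against 435 and 527 CPM on the control diet, and Chordc1 had 235 and 338 CPM, against 264 and 291 CPM. None of these 3 stood out in control library 2. Hsf1, the factor that drives the response, had 200.1 and 159 CPM on the high-fiber diet, against 221 and 202 CPM on the control diet, and Hsf2 had 138 and 204 counts, against 119 and 57 counts.

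**Figure D2:**
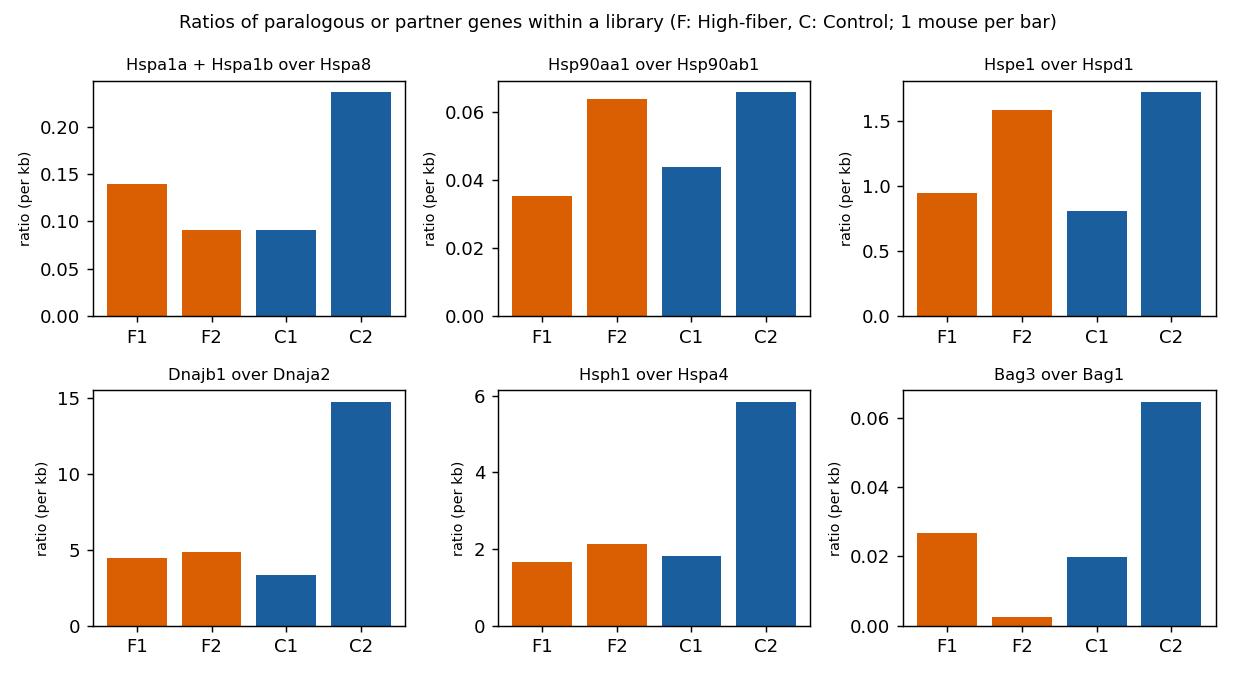
Ratios of inducible to partner genes within each library, from counts per kb of transcript, which are free of the scaling between libraries. Each bar is 1 mouse, orange for high-fiber libraries 1 and 2 and blue for control libraries 1 and 2. Control library 2 has the tallest bar in all 6 panels, by a wide margin for Dnajb1 over Dnaja2 (14.8) and Hsph1 over Hspa4 (5.84), and hardly so for Hsp90aa1 over Hsp90ab1 (0.0660, against 0.0641 in high-fiber library 2).

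Set against the geometric mean of the other 3 libraries, 8 of 16 inducible genes were at least 2-fold higher in control library 2, against 12.1% of all 11841 tested genes. They were Hspa1a (5.40-fold), Bag3 (5.27-fold), Hspa1b (4.14-fold), Hspb1, Dnajb1 (3.51-fold), Hsph1 (2.66-fold), Hsp90aa1 (2.20-fold) and Hspe1 (2.12-fold). Hspb1 (3.92-fold) passed only through the single count in control library 1. Hspb1 had 3.81 CPM in control library 2, between the 1.94 and 4.22 CPM of the high-fiber libraries. The value for Bag3 rests in part on its low level in high-fiber library 2. Against high-fiber library 1 and control library 1 alone, Bag3 was 2.78-fold higher in control library 2. Igkc, Igha and Jchain were low in the same library. The T cell marker Cd3e (3.86-fold) and the macrophage markers Cd68 (2.90-fold) and Csf1r (18.5-fold) were high there, each at 13.2 CPM or less. Other markers of those lists went either way, and the part of such cells in these values was not tested. Of 19 constitutive genes only Hspa8 passed there, at 2.00-fold, and 2 of the 35 members, Cryab and Hsf2, were at least 2-fold lower there (10.4% of all genes). In the other libraries 1 inducible gene each passed, Cryab in high-fiber library 1 (14.1% of all genes), Hspb1 in high-fiber library 2 (10.7%) and Cryab in control library 1 (12.8%), and of the constitutive genes only Hsf2 in high-fiber library 2. With 1 mouse per library these folds have no replicate check and no test.

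By order alone, 10 of 16 inducible genes had their highest level in control library 2, where 22.5% of all tested genes had theirs. The other inducible maxima were 3 in high-fiber library 1 (Hspa4l, Cryab and Ahsa1; 24.3% of all genes), 3 in high-fiber library 2 (Hspb1, Chordc1 and Stip1; 28.3%) and 0 in control library 1 (24.8%). The constitutive maxima were spread over the libraries, with 7 and 4 in high-fiber libraries 1 and 2 and 5 and 3 in control libraries 1 and 2. The 3 in control library 2 were Hspa8, Hsp90ab1 and Cct4. The median log2 difference of the inducible genes from the other libraries was 0.92 in control library 2, against -0.33 and -0.20 in high-fiber libraries 1 and 2 and -0.41 in control library 1. For the constitutive genes it was -0.06 in control library 2, against 0.09 and 0.06 in the high-fiber libraries and -0.17 in control library 1.

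**Figure D3:**
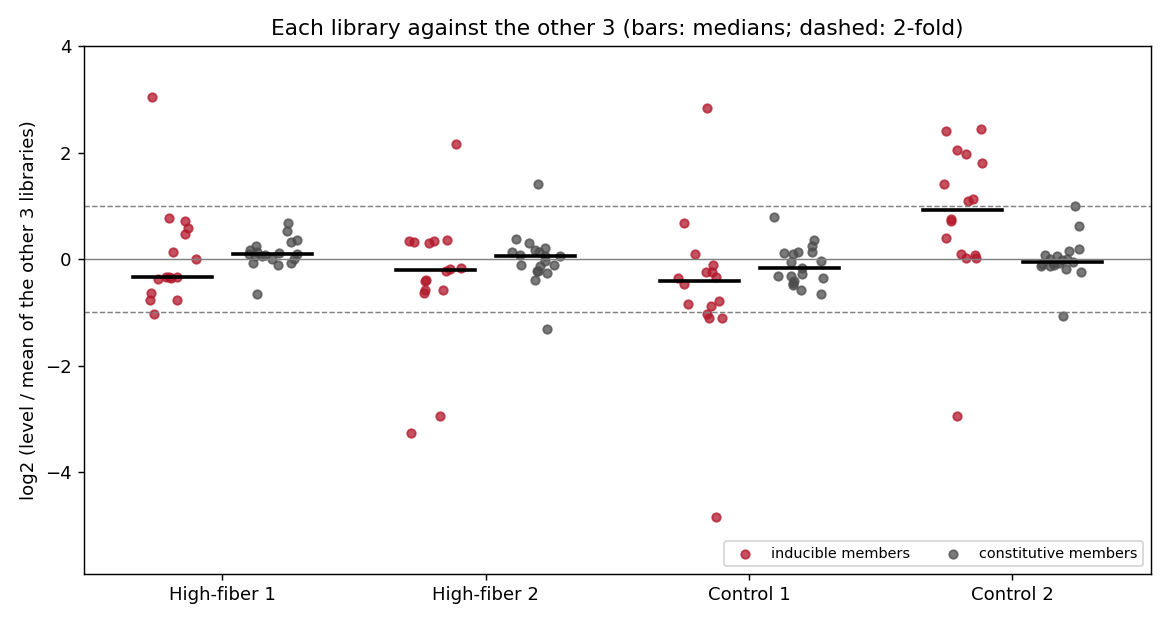
Log2 difference of each gene in a library from the mean of the other 3 libraries, for inducible (red) and constitutive (grey) members. Each point is 1 gene, black bars are medians and dashed lines mark 2-fold. The red median of control library 2 is 0.92, while the other 7 medians lie between -0.41 and 0.09, and the farthest points below 0 belong to Hspb1 in control library 1, Bag3 in high-fiber library 2 and Cryab in library 2 of each diet.

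In the median, inducible genes differed more between the 2 control mice than between the diet means. Each diet mean averages 2 mice and so varies less than a single mouse, which limits this comparison. The median absolute log2 difference of the 16 inducible genes was 0.37 between the high-fiber mice and 1.36 between the control mice, and 0.48 between the diet means. For the 19 constitutive genes it was 0.20 between the high-fiber mice and 0.25 between the control mice, and 0.16 between the diet means. Over all tested genes it was 0.56 between the high-fiber mice, 0.41 between the control mice and 0.41 between the diet means. The ratio of the highest to the lowest library had a median of 2.81 over inducible members, with Cryab left out for its values of 0, of 1.34 over constitutive members and of 2.15 over all tested genes.

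Immediate early genes, which many stimuli switch on within minutes, had another order. Their summed level over 13 genes was 24520 and 18410 CPM in the high-fiber libraries, against 42730 and 37320 CPM in control libraries 1 and 2, so that both control libraries were high. Fos, a subunit of AP-1, had 3153 and 2422 CPM on the high-fiber diet, against 6405 and 6023 CPM on the control diet. Egr1 had 189 and 134 CPM on the high-fiber diet, against 599 and 788 CPM on the control diet (log2 fold change -2.10 ± 0.27, adjusted p = 0.212 with edgeR and 4.81e-10 with DESeq2). All 13 had negative log2 fold changes (51.2% of all genes), and 9 were lower at an unadjusted p under 0.05 (4.1% of all genes). At an adjusted p under 0.05 edgeR called 0 of the 13, and DESeq2 called 7 lower (0.635% of all genes), which were Fos, Egr1, Egr2, Atf3, Ier2, Nr4a1 and Zfp36. Control library 1 thus had a high sum of immediate early transcripts. Its inducible chaperones summed to 3550 CPM, against 3907 and 4173 CPM in the high-fiber libraries. Control library 2 had both sums high, with 8430 CPM for the inducible chaperones. Whether the 2 groups of genes share a cause was not tested. Mitochondrially encoded transcripts held 0.139% and 0.286% of counts on the high-fiber diet and 0.220% and 0.231% on the control diet, and genes of ribosomal proteins held 0.619% and 0.669%, against 0.644% and 0.704%.

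The diet comparison asked whether these transcripts differ between ILC2s of mice on the high-fiber and on the control diet. With all 4 libraries, 0 of 35 members passed edgeR's quasi-likelihood test at an adjusted p under 0.05 in either direction, against 0.0338% of all tested genes called higher and 0% called lower. Before adjustment, p was under 0.05 for 1 member that was higher (Cct2; 4.7% of all genes) and 2 that were lower (Hsph1 and Dnajb4; 4.1%). DESeq2 called 1 of 35 lower, Dnajb4 (0.635% of all genes it could call), and 0 higher (1.28%), and limma-voom called 0. Log2 fold changes were negative for 10 of 16 inducible and 8 of 19 constitutive genes, against 51.2% of all genes. Their median was -0.26 for inducible, 0.04 for constitutive and -0.02 for all tested genes, and without control library 2 the inducible median was 0.28 and the constitutive one 0.11, with 0.01 for all tested genes.

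Dnajb4 had the smallest p of the 35. It was at 101 ± 23.4 CPM on the high-fiber diet, against 206 ± 2.78 CPM on the control diet (SD, n = 2 each), a log2 fold change of -1.04 ± 0.25 (SE) that missed edgeR's threshold (adjusted p = 0.447) and passed that of DESeq2 (adjusted p = 0.0348). Without control library 2 its log2 fold change was -1.02, with an edgeR adjusted p = 0.872. For Hsph1 the log2 fold change was -1.004 ± 0.40 (edgeR adjusted p = 0.538), and without control library 2 it was -0.26. Cct2 was at 107 ± 9.19 CPM on the high-fiber diet, against 69.3 ± 11.6 CPM on the control diet (0.63 ± 0.26, edgeR adjusted p = 0.561), and without control library 2 its log2 fold change was 0.80. These were the only members at an unadjusted p under 0.05, and that of Cct2 was 0.0484.

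For 8 of the members given with fold changes a negative value turned positive once control library 2 was left out, and for Bag3, Dnaja1 and Hsf1, as for Hsph1 and Dnajb4, it stayed negative. For 3 of the 8 the sign also turned without a high-fiber library, to 0.006 for Hsp90aa1 and 0.107 for Hspe1 without library 1, and to 0.048 for Hspd1 without library 2. Hspa1a was at 55.1 ± 2.94 CPM on the high-fiber diet, against 164 ± 166 CPM on the control diet. Its log2 fold change was -1.55 ± 0.75 (edgeR adjusted p = 0.645) and became 0.25 without control library 2. Dnajb1 was at 1044 ± 86.3 CPM on the high-fiber diet, against 2122 ± 1816 CPM on the control diet. Its log2 fold change was -1.02 ± 0.58 (edgeR adjusted p = 0.702) and became 0.32. Likewise the value without control library 2 was 0.47 for Hspa1b (-1.14 ± 0.67 with all libraries), 0.57 for Hsp90aa1 (-0.35 ± 0.50), 0.85 for Hspe1 (-0.17 ± 0.54), 0.24 for Hspd1 (-0.06 ± 0.27), 0.11 for Hspa8 (-0.51 ± 0.38) and 0.41 for Hsp90ab1 (-0.11 ± 0.32). Bag3 stood at -1.27 ± 0.88, at -0.24 without control library 2, -1.97 without control library 1, -3.58 without high-fiber library 1 and -0.55 without high-fiber library 2. Without control library 2, Dnaja1 was at -0.003 (-0.42 ± 0.28 with all libraries) and Hsf1 at -0.30 (-0.23 ± 0.23). For these 11 genes edgeR's adjusted p was between 0.645 and 0.974 with all libraries, and with 2 mice per diet such values do not show that the levels were alike.

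**Figure D4:**
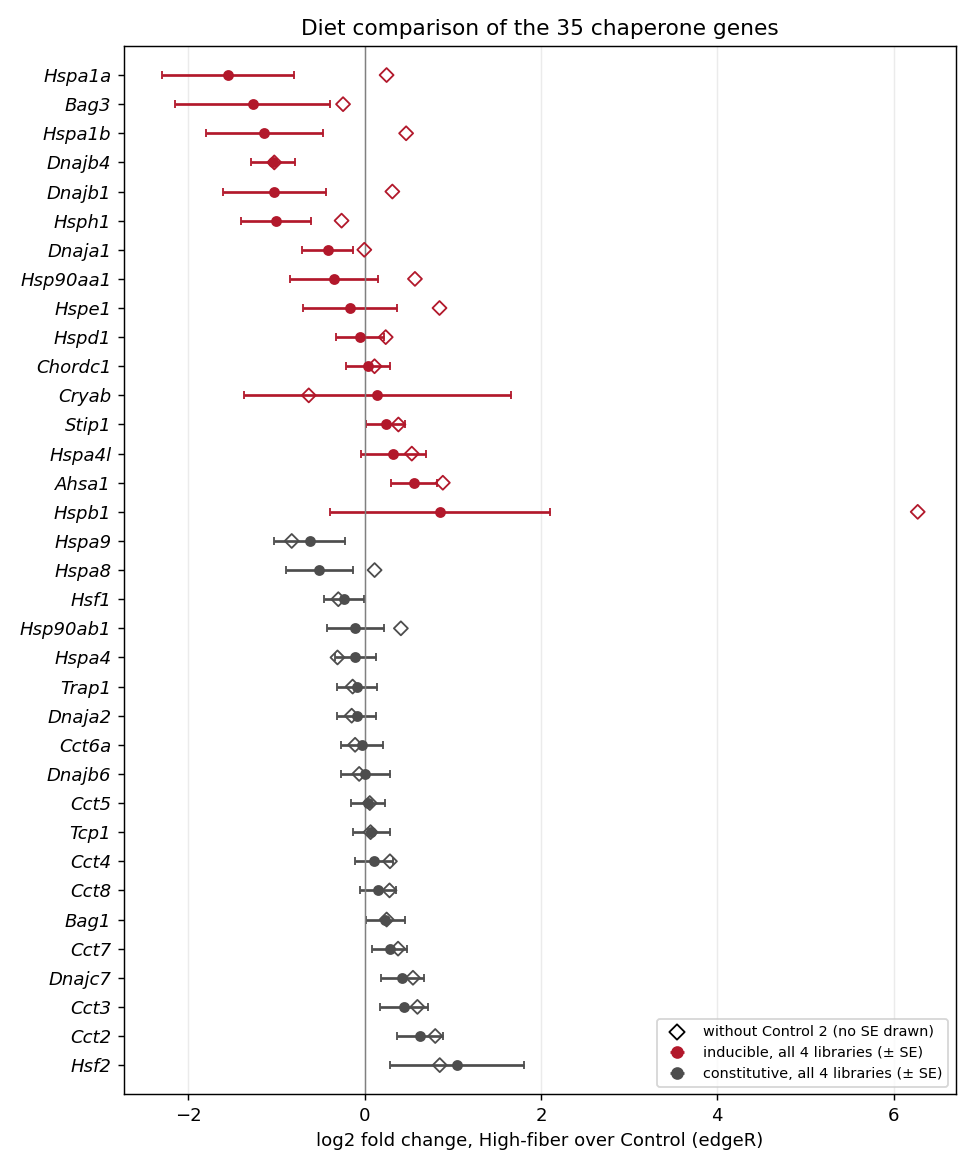
Log2 fold change of each of the 35 genes, high-fiber over control diet, with its standard error (filled points, all 4 libraries), and the value without control library 2 (open diamonds). Red marks inducible and grey constitutive members. Hspa1a lies at -1.55 with all libraries and at 0.25 without control library 2, whereas Dnajb4 lies at -1.04 and -1.02, and the diamond of Hspb1 at 6.27 rests on the single count in control library 1.

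Both high-fiber libraries lay above both control libraries for 7 members, against 18.5% of all tested genes. They were Cct2, Cct7, Cct8, Dnajc7, Bag1, Hsf2 and, as the 1 inducible gene, Ahsa1. Both lay below for 3 members, Hsph1, Dnajb4 and Hsf1, against 19.6% of all genes. Of the 8 CCT genes 7 had positive log2 fold changes, from 0.04 for Cct5 to 0.63 for Cct2, with -0.03 for Cct6a, against 48.8% positive over all tested genes. Over all genes 0 of the 8 passed with edgeR or DESeq2, and 1, Cct2, was higher at an unadjusted p under 0.05 (4.7% of all genes).

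Of 57 further chaperone and cochaperone genes 48 were tested, and 0 passed edgeR's test, with 27 positive and 21 negative log2 fold changes, a median of 0.07, and an unadjusted p under 0.05 for 2 that were higher (4.7% of all genes) and 1 that was lower (4.1%). These counts are no higher than those shares, and the genes below are given by their order of p. Fkbp5, an HSP90 cochaperone of steroid receptors that glucocorticoids induce, had 80.0 and 83.2 CPM in the high-fiber libraries, against 40.7 and 29.8 CPM in the control libraries. The diets did not overlap and the high-fiber mice were alike. Its log2 fold change was 1.20 ± 0.29 (edgeR adjusted p = 0.447), and DESeq2 called it higher (adjusted p = 0.0283). Dnajb12, a J-domain protein of the endoplasmic reticulum membrane, had 19.9 and 33.0 CPM on the high-fiber diet, against 11.7 and 9.72 CPM on the control diet (1.27 ± 0.48, edgeR adjusted p = 0.521). Htra2, a mitochondrial protease, had 37.1 and 24.7 CPM, against 55.3 and 55.3 CPM (-0.82 ± 0.33, edgeR adjusted p = 0.543), and St13, which binds HSP70, had 190 and 135 CPM, against 89.7 and 122 CPM (0.63 ± 0.29, edgeR adjusted p = 0.613). Of 7 other heat-induced genes 5 were tested and 0 passed, with 0 at an unadjusted p under 0.05 and a median of -0.33. Ier5, which binds HSF1, had 304 and 214 CPM on the high-fiber diet, against 361 and 343 CPM on the control diet (-0.44 ± 0.24). It was 1.20-fold in control library 2 against the mean of the other libraries. Of the 5 tested heat-induced genes 0 were at least 2-fold higher in that library (12.1% of all genes).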

How the data were processed

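The deposited file holds raw read counts per NCBI gene for 4 libraries as the authors deposited them, without normalization. The kit was a SMARTer Ultra Low Input V4, per the labels' protocols, a method that primes on poly(A) tails and amplifies the cDNA. The submitters' processing notes name CASAVA 1.8.2, STAR 2.3.0 and the mm10 build without roles. Neither the counting program nor its strand setting is stated, so reads of overlapping genes or near-identical copies may be shared, split or dropped. Totals were 20253987 to 30406730 counts per library, and PCR copies are not independent molecules, so a limit set by a count of 0 covers counting error only.

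Symbols came from the RefSeq table of GRCm38.p6, the assembly of mm10, for 25275 identifiers, and 1904 kept their number. Transcript lengths were those of the GENCODE M21 coding transcript with the longest coding region, and of the longest such transcript in a tie. In R 4.3.3 with edgeR 4.0.16, genes passing filterByExpr were scaled by TMM and fitted with an intercept and the diet (glmQLFit with legacy=FALSE, then glmQLFTest, Benjamini-Hochberg adjustment over 11841 genes). A standard error is the size of the fold change over the root of its F value. Library comparisons used log2 CPM with a prior count of 2. Alternatives were other scalings and filters, legacy=TRUE, robust fitting, DESeq2 1.42.0, limma-voom (limma 3.58.1), a replicate block and each library left out. The fits were run on simulated data with planted changes larger than any fitted for a member with all libraries. This checks the recovery of such changes and not the power for smaller ones. The members, lists and tests were chosen with earlier results of these data known. Fold changes with errors were given for 13 members fixed by name and any other at an unadjusted p under 0.05, and for up to 4 genes of lowest p in other lists. Other values were chosen after they were seen.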

Additional observations from a re-analysis of the deposited data

How the results depend on the processing

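With 2 mice per diet and 2 residual degrees of freedom, only large differences can pass. Over all genes edgeR called 4; it called 0 with no filter on low counts, 9 with a filter of 5 CPM in 2 libraries and 0 with legacy=TRUE, DESeq2 called 238, limma-voom called 0, and fits without 1 library called 0 to 1, the 1 being without high-fiber library 1. Of the members 0 were called in each of these fits but DESeq2, which called 1, Dnajb4 (-1.015). The numbers 1 and 2 pair no mice by the labels, same-numbered libraries deviated with a correlation of 0.0408, and a replicate block called 0 genes and 0 members. The median log2 fold change without 1 library ran from -0.768 to 0.283 for inducible members, from 0.049 to 0.120 for constitutive members and from -0.032 to 0.250 for all. Ranges that changed sign were -2.350 to 0.250 for Hspa1a, -1.889 to 0.471 for Hspa1b, -0.946 to 0.114 for Hspa8, -0.915 to 0.571 for Hsp90aa1, -0.489 to 0.412 for Hsp90ab1, -1.704 to 0.315 for Dnajb1, -0.310 to 0.240 for Hspd1 and -0.792 to 0.850 for Hspe1, each highest without control library 2. The range was -3.575 to -0.244 for Bag3. Hspe1 was also 0.081 with limma-voom, and the cause was not tested. Without scaling factors 5 constitutive members, against 3 with TMM, were highest in control library 2, and the inducible count there was 10 under each scaling. Transcripts with few counts (Hspb1, Cryab) limit what can be read from them.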

Other observations

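Among the 48 further chaperone genes tested, 2 J-domain genes were at least 2-fold higher in control library 2 than the mean of the other libraries, and 5 genes were at least 2-fold lower (Dnajb5, Bag2, Fkbp5, Unc45a and Dnajb12). Over all tested genes 12.1% were that much higher and 10.4% that much lower, so the higher count is below the share of all genes. Dnaja4, a heat-inducible cytosolic relative of Dnaja1, had 178 and 221 CPM in the high-fiber libraries, against 137 and 360 CPM in control libraries 1 and 2. Dnaja3, the mitochondrial J-domain protein, had 33.2 and 21.9 CPM in the high-fiber libraries, against 27.1 and 62.2 CPM in control libraries 1 and 2. Clpb, a mitochondrial disaggregase, had 28.1 and 25.7 CPM in the high-fiber libraries, against 25.7 and 44.7 CPM in control libraries 1 and 2.

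The small heat shock gene Cryab had counts in library 1 of each diet and 0 in library 2 of each diet. This gene was chosen here after its values were seen.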
